A study of Rattus norvegicus with 6 samples.

Results

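The 10 rat genes Cyp2a1, Cyp2a2, Cyp2a3, Cyp2d1, Cyp2d2, Cyp2d3, Cyp2d4, Cyp2d5, Cyp2e1 and Cyp2j3, out of 15284 genes named on the array, were examined in rat liver after treatment with BBMP, short for 2,2-bis(bromomethyl)-1,3-propanediol, which is used as a flame retardant. They were chosen by name, and every probe whose accession maps to one of these symbols was taken, which gave 16 of 61573 probes. All livers came from male Sprague-Dawley (Crl:CD(SD)) rats bought at 5 weeks of age and fed a basal diet. One group received BBMP at 1000 mg/kg/day (n = 3) and the other received corn oil (n = 3), with 1 array per animal. The series design gives the time of measurement as 28 days, whereas the treatment protocol gives 9 weeks of dosing, and the sources used here do not settle which is meant. The route of dosing is not given in the sources used here.

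Cytochromes P450 are haem proteins of the endoplasmic reticulum that oxidise steroids, fatty acids, drugs and solvents with electrons from P450 reductase. The CYP2 family grew by repeated gene duplication, so a subfamily often lies as a row of similar genes with different substrates. In adult rat liver several members differ between the sexes under the control of growth hormone. Cyp2e1 is concentrated in the hepatocytes around the central vein.

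Signals are given as the log2 of the spot's processed brightness minus the log2 of the array's 75th percentile, so that 0 is the 75th percentile of that array. Brightness depends on the probe, so levels are compared between livers and not between genes. Between 60.1% and 64.4% of the probes on an array exceeded background clearly. Pearson correlations between arrays, across 35550 probes above background on all 6, lay between 0.988 and 0.993. Corn oil 2 stood apart: it had the fewest probes above background, and it correlated at 0.988 with each treated array, where corn oil 1 and 3 gave 0.991 to 0.993. The hepatocyte markers Alb, Ttr, Apoa1, Tf, Serpina1 and Cps1 were well above background on all 6 arrays. Each group had a slide and a scan of its own, and for every value below the effects of slide or scan and of BBMP cannot be told apart.

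In the RefSeq annotation of the rat assembly GRCr8, Cyp2d4, Cyp2d5, Cyp2d1, Cyp2d3 and Cyp2d2 follow each other on chromosome 7 with no other protein-coding gene between them. Cyp2a3, Cyp2a1 and Cyp2a2 are likewise neighbours on chromosome 1, which also holds Cyp2e1, and Cyp2j3 lies on chromosome 5. Promoter sequences, from 250 bases before to 50 bases after the annotated start, were found for 9 of the 10 genes, all except Cyp2a2. Stretches of 6 of them are printed, from promoters that hold a string marked in capitals. Cyp2d2, Cyp2d4 and Cyp2j3 are not printed, so the stretches do not show how alike all neighbouring genes are. Capitals mark CAAAGGNCA, one element of the kind of repeat that the hepatocyte factor HNF4A binds, and TATAAA, the letters of the TATA box, each on either strand. In GRCr8 the stretches of Cyp2a1 and Cyp2a3 are chr1:91359176-91359284 and chr1:91299465-91299573 on the plus strand, those of Cyp2d5, Cyp2d1 and Cyp2d3 are chr7:115784527-115784635, chr7:115793435-115793543 and chr7:115802143-115802251 on the minus strand, and that of Cyp2e1 is chr1:205269848-205269953 on the plus strand.
Cyp2a1: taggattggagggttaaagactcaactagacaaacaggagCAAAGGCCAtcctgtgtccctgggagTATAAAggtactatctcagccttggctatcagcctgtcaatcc
Cyp2a3: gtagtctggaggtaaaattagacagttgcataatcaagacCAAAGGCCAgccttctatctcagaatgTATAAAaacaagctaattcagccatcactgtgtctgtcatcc
Cyp2d5: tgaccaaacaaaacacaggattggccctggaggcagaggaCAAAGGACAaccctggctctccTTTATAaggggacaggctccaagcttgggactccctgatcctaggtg
Cyp2d1: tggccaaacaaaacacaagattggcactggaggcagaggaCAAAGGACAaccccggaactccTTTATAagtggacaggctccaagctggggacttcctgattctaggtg
Cyp2d3: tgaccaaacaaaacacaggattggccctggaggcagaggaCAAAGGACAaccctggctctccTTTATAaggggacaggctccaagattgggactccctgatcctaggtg
Cyp2e1: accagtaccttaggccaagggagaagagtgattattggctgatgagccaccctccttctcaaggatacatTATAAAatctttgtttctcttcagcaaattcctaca

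Over their aligned promoter bases, Cyp2d3 and Cyp2d5 were 96.2% identical (251 of 261 bases), Cyp2d1 and Cyp2d5 92.8% (246 of 265) and Cyp2d1 and Cyp2d3 90.5% (268 of 296). Cyp2a1 and Cyp2a3 were 69.9% identical (179 of 256). No identity is given for Cyp2d2 and Cyp2d4, so these values do not cover the whole Cyp2d row. CAAAGGNCA was found in 5 of the 9 promoters, those of Cyp2a1, Cyp2a3, Cyp2d1, Cyp2d3 and Cyp2d5, and in 1.82% of 33469 rat promoters of the same length. TATAAA was found in 6 of the 9, the same 5 and Cyp2e1, and in 14.2% of all. GTTAAT, part of the site of HNF1 factors, was found in Cyp2a3 and Cyp2d2, 2 of the 9, against 7.45% of all. The CAAAGGNCA string was chosen after the sequences had been read. The matching promoters within a subfamily are alike, so the matches are not independent and the shares cannot be set against each other as a test. A match is a description of the letters only.

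No gene of the set passed the test. The steroid hydroxylases Cyp2a1 and Cyp2a2 were higher in every treated liver than in any corn oil liver, by 1.37-fold and 1.40-fold. Cyp2e1 differed by 1.32-fold, a gap smaller than the SD among the corn oil livers. By the probe that stands for each gene, the 5 Cyp2d genes and Cyp2j3 lay within 0.91-fold and 1.07-fold of corn oil. Their intervals include 0 on the log2 scale. The probes of Cyp2j3 did not all give the same difference, and its dimmest was 1.38-fold higher, without overlap. Cyp2a3 did not exceed background on any array.

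Of the 10 genes, 9 passed the filter on dim probes, which asks for a signal well above background on all 3 arrays of a group. Among these, 0 passed limma's test with Benjamini-Hochberg adjustment over 28112 features at 0.05, where 2 features (0.00711%) passed over the whole array. At an unadjusted p under 0.05 there were 2 of the 9, both higher with BBMP, against 10.8% of all features (4.7% higher and 6.1% lower). In 6 of the 9 the difference was positive, against 47.5% of all features, and the median log2 difference was 0.07 for the 9 genes and -0.01 for all features. The groups did not overlap for 2 of the 9, both with BBMP higher, against 17.8% of all features (8.23% with BBMP higher and 9.6% with BBMP lower). Taken probe by probe, 0 of the 15 probes passed, against 0.00531% of 37644 probes, and the groups did not overlap for 5 of the 15, all with BBMP higher, against 8.37% of probes. These 5 probes read only 3 genes and are not independent. With 9 genes, 2 such genes are a small count to set against that background. In bulk liver, fewer cells of a type and less RNA per cell cannot be told apart.

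**Figure D1:**
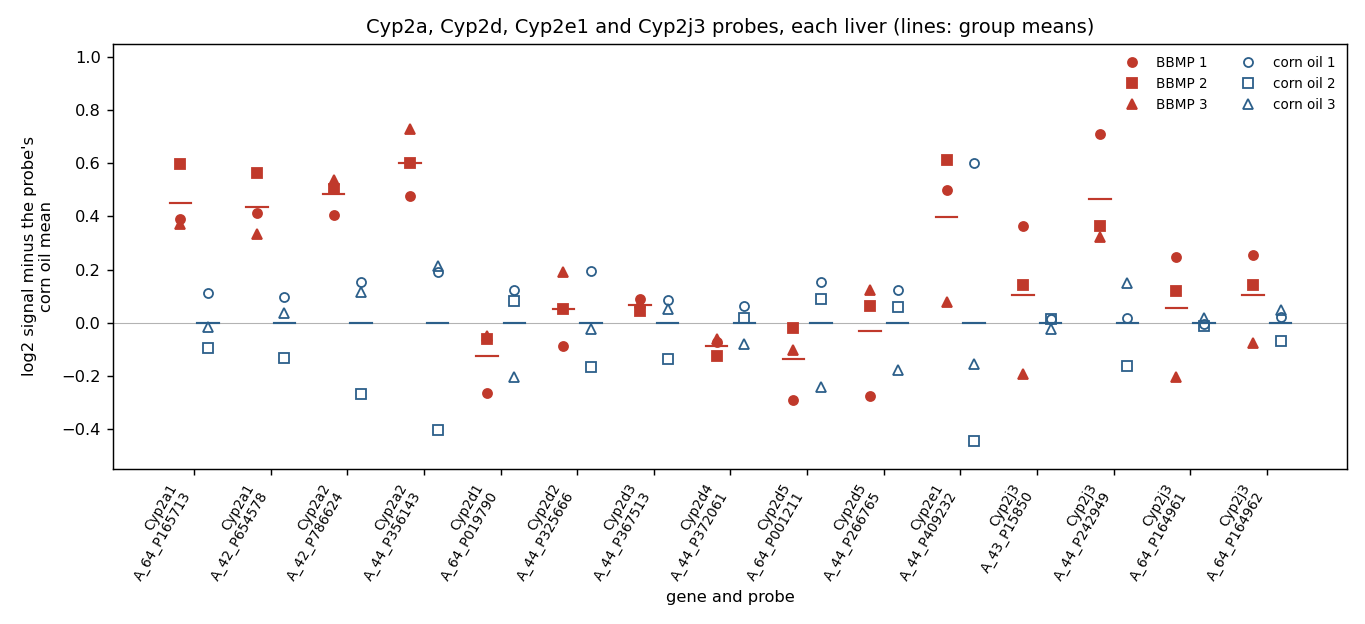
Log2 signal of each of 15 probes in each liver, minus the probe's corn oil mean (y axis), by gene and probe (x axis). Filled red symbols are BBMP livers, open blue symbols corn oil livers, with 1 symbol shape per replicate number, and short lines are group means. The 4 probes of Cyp2a1 and Cyp2a2 and 1 probe of Cyp2j3 have all BBMP livers above all corn oil livers.

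Cyp2a1 encodes a steroid hydroxylase that acts on testosterone and is more abundant in female than in male adult rat liver. Its brighter probe, A_64_P165713, gave log2 signals of 4.73, 4.94 and 4.71 in BBMP livers, against 4.45, 4.25 and 4.33 in corn oil livers. All treated livers were above all corn oil livers, and BBMP 2 was the highest. The log2 difference was 0.45 ± 0.11 (SE; 95% interval 0.18 to 0.72; limma adjusted p = 0.384). The other probe, A_42_P654578, gave 2.82, 2.97 and 2.74 in BBMP livers, against 2.50, 2.27 and 2.44 in corn oil livers, again without overlap, with a difference of 0.44 ± 0.11. The log2 ratio of the dimmer to the brighter probe within an array was -1.95 ± 0.03 in BBMP livers and -1.94 ± 0.05 in corn oil livers (SD, n = 3 each; exact permutation test, two-sided, p = 0.7, adjusted p = 0.914 over 8 ratios). With 3 livers a group this test cannot go below 0.1, so its p does not show that any of the ratios was equal in both groups.

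Cyp2a2 encodes a related steroid hydroxylase that in adult rats is found mainly in male liver. Probe A_42_P786624 gave 5.75, 5.85 and 5.88 in BBMP livers, against 5.49, 5.07 and 5.46 in corn oil livers. The treated livers lay close together and above all corn oil livers, of which corn oil 2 was the lowest. The difference was 0.48 ± 0.14 (SE; 95% interval 0.15 to 0.82; limma adjusted p = 0.406). Without corn oil 2 it was 0.35 (adjusted p = 0.659). Probe A_44_P356143 gave 3.78, 3.90 and 4.03 in BBMP livers, against 3.49, 2.90 and 3.51 in corn oil livers, a difference of 0.60 ± 0.19, with the same order of the groups.

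The log2 ratio of Cyp2a1 to Cyp2a2 within an array differed by -0.03 between the groups, with an SD of 0.13 among BBMP livers and 0.16 among corn oil livers (n = 3 each; exact permutation test, two-sided, p = 0.8, adjusted p = 0.914). Of all 28112 features, 4.72% had a difference at least as high as that of Cyp2a1. Whether probes of these neighbouring genes bind both transcripts was not tested. Cyp2a3, which in rats is expressed in lung and nasal tissue, had signals of -7.40, -7.37 and -7.51 in BBMP livers, against -7.15, -6.89 and -7.46 in corn oil livers. The lowest signal well above background on these arrays lay between -5.40 and -4.89, so Cyp2a3 was below the measurable range in both groups and no fold is given. Of the lung markers, Sftpc did not pass the filter, whereas Scgb1a1 was well above background on all 6 arrays. Its signal lay between -3.71 and -3.28 in BBMP livers and between -3.89 and -3.33 in corn oil livers.

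The protein-coding genes on either side of the Cyp2a genes, named by position only, did not share one direction. Cyp2b15, on the side of Cyp2a3 beyond Cyp2g1, had a log2 difference of 0.59 ± 0.10 (SE; adjusted p = 0.314 from limma), without overlap. Cyp2g1, an olfactory P450, did not pass the filter. On the other side, Cyp2f4 differed by -0.16 ± 0.11 (adjusted p = 0.623) and Cyp2t1 by -0.25 ± 0.12 (adjusted p = 0.511). All treated livers were below all corn oil livers for Cyp2t1, and the groups overlapped for Cyp2f4.

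**Figure D2:**
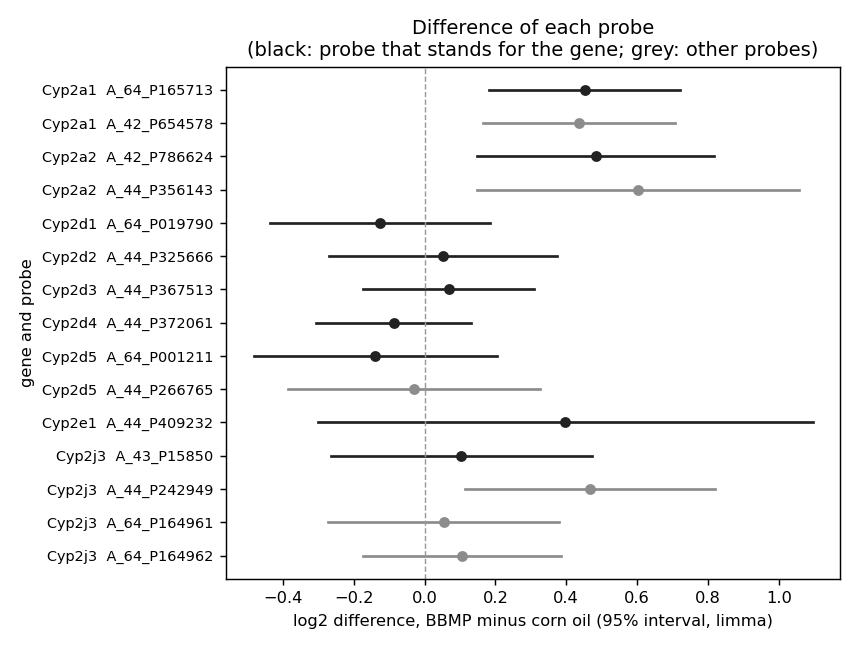
Log2 difference, BBMP minus corn oil (x axis), of 15 probes (y axis), with points for the difference and bars for its 95% interval from limma over 3 arrays a group. Black marks the probe that stands for the gene and grey its other probes. The intervals of the 4 Cyp2a probes and of 1 Cyp2j3 probe lie above 0, before adjustment over all features.

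The Cyp2d subfamily metabolises many basic drugs, and debrisoquine is the textbook substrate in rats. Cyp2d1 had log2 signals of 8.67, 8.87 and 8.88 in BBMP livers, against 9.05, 9.01 and 8.72 in corn oil livers. The groups overlapped, because corn oil 3 lay among the treated livers, and the difference was -0.13 ± 0.13 (SE; 95% interval -0.44 to 0.18; limma adjusted p = 0.742). Cyp2d5, by its brighter probe A_64_P001211, had 8.88, 9.15 and 9.07 in BBMP livers, against 9.32, 9.26 and 8.93 in corn oil livers. Its difference was -0.14 ± 0.14 (95% interval -0.48 to 0.20; limma adjusted p = 0.743), and its other probe gave -0.03 ± 0.15. Cyp2d1 and Cyp2d5 ran in parallel across the livers, with BBMP 1 and corn oil 3 lowest in their groups. Their signals, each centred on its own mean over the 6 arrays, differed by a root mean square of 0.03 log2 units, the smallest among all pairs of the 9 genes. Their transcripts and probes were not compared by sequence, and whether the probes tell the genes apart was not tested.

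Cyp2d2, the main debrisoquine hydroxylase of rat liver, had 5.63, 5.77 and 5.91 in BBMP livers, against 5.91, 5.55 and 5.70 in corn oil livers. The groups overlapped fully, and the difference was 0.05 ± 0.13 (SE; 95% interval -0.27 to 0.37; limma adjusted p = 0.906). Cyp2d3 had 5.27, 5.23 and 5.25 in BBMP livers, against 5.27, 5.05 and 5.23 in corn oil livers. The treated livers were almost level, and corn oil 2 alone was lower. The difference was 0.07 ± 0.10 (95% interval -0.17 to 0.31; limma adjusted p = 0.825). Cyp2d4, which is known for its expression in rat brain, had 5.04, 4.99 and 5.05 in BBMP livers, against 5.17, 5.13 and 5.03 in corn oil livers, a difference of -0.09 ± 0.09 (95% interval -0.31 to 0.13; limma adjusted p = 0.749). With normexp background correction the differences of Cyp2d3 and Cyp2d5 had the other sign, at -0.12 and 0.02. These results do not show that the Cyp2d genes were unaffected: the intervals of their differences reach from -0.48 to 0.37 on the log2 scale.

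Cyp2e1, which oxidises ethanol, acetone and small halogenated solvents, was read by 1 probe. Its log2 signal was 8.74, 8.85 and 8.32 in BBMP livers, against 8.84, 7.79 and 8.08 in corn oil livers. Corn oil 1 was close to the highest treated liver, whereas corn oil 2 and 3 were below every treated liver. The difference was 0.40 ± 0.29 (SE; 95% interval -0.30 to 1.095; limma adjusted p = 0.639). The corn oil livers had an SD of 0.54, where the median SD over all features was 0.17 among corn oil livers. The value depended on single animals: it was 0.17 without corn oil 2 (adjusted p = 0.934) and 0.70 without corn oil 1 (adjusted p = 0.392), where the groups no longer overlapped. The fit without BBMP 3 gave 0.56.

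Cyp2j3, an arachidonic acid epoxygenase of rat heart and liver, was read by 4 probes, which did not all give the same difference. The brightest, A_43_P15850, gave 5.80, 5.58 and 5.25 in BBMP livers, against 5.45, 5.45 and 5.42 in corn oil livers. The corn oil livers were almost level, with the treated livers spread on both sides of them, and the difference was 0.10 ± 0.15 (SE; 95% interval -0.26 to 0.47; limma adjusted p = 0.824). Probes A_64_P164961 and A_64_P164962 gave 0.05 ± 0.14 and 0.11 ± 0.12. Probe A_44_P242949 gave 2.24, 1.90 and 1.85 in BBMP livers, against 1.55, 1.36 and 1.68 in corn oil livers. Here all treated livers were above all corn oil livers, and the difference was 0.47 ± 0.15 (limma adjusted p = 0.426 over 37644 probes). Its within-array ratio to the brightest probe was -3.55 ± 0.15 in BBMP livers and -3.91 ± 0.18 in corn oil livers on the log2 scale (SD, n = 3 each). That gap of 0.36 did not overlap between the groups (exact permutation test, two-sided, p = 0.1, the smallest this design allows; adjusted p = 0.8 over 8 ratios). The deposited files used here do not give the probes' positions in the transcript. The neighbouring gene Cyp2j4 differed by 0.33 ± 0.21 (adjusted p = 0.596), with overlap.

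**Figure D3:**
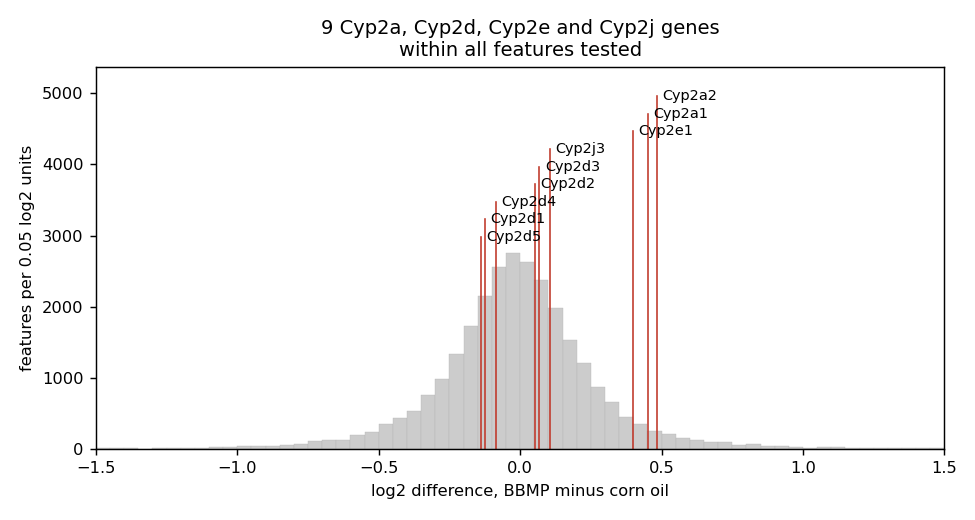
Number of features (y axis) by log2 difference, BBMP minus corn oil, in steps of 0.05 (x axis), over 28112 features tested, with red lines at the 9 genes; features beyond 1.5 in either direction are not drawn. Cyp2e1, Cyp2a1 and Cyp2a2 lie between 0.40 and 0.48 in the upper tail, and the other 6 genes lie between -0.14 and 0.10 near the centre.

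Leaving out each array in turn kept Cyp2a1 between 0.38 and 0.51 and Cyp2a2 between 0.35 and 0.56. Their groups did not overlap on all 6 arrays, and leaving out an array cannot make such groups overlap. Cyp2d1 stayed between -0.23 and -0.06, Cyp2d4 between -0.13 and -0.06 and Cyp2d5 between -0.26 and -0.06. These 3 genes were lowest without corn oil 3, and in that fit alone their groups did not overlap. Cyp2d2 ranged from -0.03 to 0.15, Cyp2d3 from -5.1e-05 to 0.11 and Cyp2j3 from -0.02 to 0.25, so none of these has a settled direction. Cyp2d5 kept its sign here but not with normexp, where it was at 0.02.

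**Figure D4:**
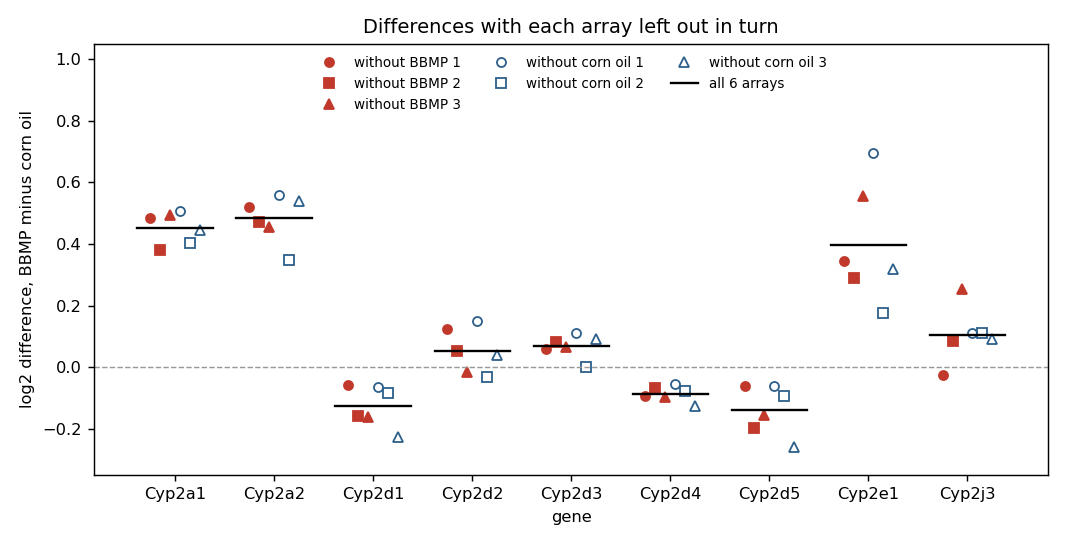
Log2 difference, BBMP minus corn oil (y axis), of the 9 genes (x axis) with 1 array left out (symbols) and with all 6 arrays (black lines). The Cyp2a1 and Cyp2a2 symbols stay above 0.34, whereas Cyp2e1 spreads from 0.17 to 0.70. Cyp2d2 and Cyp2j3 have symbols on both sides of 0, and the lowest symbol of Cyp2d3 is at -5.1e-05.

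Lists of related genes were read in the same fit, and in each of the 5 lists 0 members passed in either direction. Among other genes of the CYP2 family, 5 of 12 were tested, 2 higher and 3 lower, with a median log2 difference of -0.16. Cyp2s1, an extrahepatic P450 of epithelia, differed by -0.27 ± 0.11 (SE; limma adjusted p = 0.457), and Cyp2t1 is given above. Among genes for electron donors and haem supply, 13 of 13 were tested, 6 higher and 7 lower, with a median of -0.001. The haem synthesis enzymes Cpox and Fech had the smallest p: Cpox differed by -0.28 ± 0.11 (adjusted p = 0.440) and Fech, which inserts the iron, by 0.42 ± 0.18 (adjusted p = 0.480). Alas1, the rate-limiting enzyme of haem synthesis, named after its values were seen, had 8.25, 8.43 and 6.78 in BBMP livers, against 7.15, 6.30 and 6.89 in corn oil livers. The groups overlapped, with BBMP 3 as low as the corn oil livers (difference 1.04 ± 0.47; adjusted p = 0.486).

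Among 19 transcription factors known to act on liver P450 genes, 17 were tested, 8 higher and 9 lower, with a median of -0.03. Tef, a clock-driven activator, was lower in all treated livers than in any corn oil liver, with a log2 difference of -0.39 ± 0.09 (SE; adjusted p = 0.379 from limma). Nr0b2, a corepressor of nuclear receptors, was higher without overlap, by 1.51 ± 0.43 (adjusted p = 0.404). Foxa2, named after its values were seen, was lower without overlap, by -1.46 ± 0.49 (adjusted p = 0.417). Of the 17 factors, the groups did not overlap for 1 with BBMP higher and 2 with BBMP lower. Over all features these shares were 8.23% and 9.6%, so the count says little about the factors. Hnf4a, chosen after its values were seen, differed by 0.04 ± 0.12 (adjusted p = 0.922). Nr1i3, the xenobiotic receptor CAR, also chosen in that way, had 3.82, 3.78 and 3.40 in BBMP livers, against 3.76, 2.32 and 2.68 in corn oil livers. As with Cyp2e1, corn oil 1 was level with the treated livers and corn oil 2 was lowest.

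Of 12 other genes that differ between the sexes in rat liver, 12 were tested, 3 higher and 9 lower, with a median of -0.26. The smallest p values belonged to A1bg and Prlr, both female-enriched. Prlr, the prolactin receptor, differed by -2.32 ± 0.49 (SE; limma adjusted p = 0.350). A1bg exceeded background in 0 of the 3 treated livers, against 3 of 3 given corn oil. It therefore passed the filter only through the corn oil group, and its p and its place among the 9 lower genes support nothing. A pair of P450 genes of this list was chosen after the values were seen. Female-specific Cyp2c12 had 4.14, 2.89 and 4.51 in BBMP livers, against 3.68, 2.49 and 2.08 in corn oil livers, with overlap and a difference of 1.096 ± 0.55 (adjusted p = 0.517). Male-specific Cyp2c11 differed by -0.12 ± 0.12 (adjusted p = 0.744). Female-enriched Prlr, given above, went the other way from Cyp2c12. Of the 12 genes, the groups did not overlap for 6, all with BBMP lower, against 9.6% of all features with BBMP lower. These were A1bg, Prlr, Srd5a1 (-0.56), Sult1e1 (-0.39), Sult2a1 (-0.63) and Cyp2c7 (-0.44), with log2 differences in brackets. Srd5a1, Sult1e1, Sult2a1 and Cyp2c7 were named because their groups did not overlap. The list mixes male-enriched and female-enriched genes, so its counts and median do not describe either kind. The groups of the 3 higher genes, Cyp2c12 among them, overlapped. Of 14 genes of hepatocytes around the central vein, 14 were tested, 2 higher and 12 lower, with a median of -0.16. Over all features, 47.5% were higher. The groups did not overlap for 3 of the 14, all with BBMP lower, against 9.6% of all features with BBMP lower. In either direction that share of all features was 17.8%. Cyp2e1, of the same zone, was at 0.40, but its groups overlapped and its value depended on single animals. The smallest p belonged to the transporter Slc13a3 (-0.75 ± 0.13; adjusted p = 0.314) and to Rgn, a calcium-binding lactonase (-0.86 ± 0.21; adjusted p = 0.384).

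Markers of liver cell types are given beside these results, and 0 of them passed limma's test. Of 6 markers of stellate cells and fibroblasts, 5 were lower. The groups did not overlap for 3 of these, and they overlapped for Col3a1. Des was higher without overlap, by 0.18 log2 units. Over all features, 9.6% were lower without overlap and 8.23% higher. Linear signals of the 6 were summed in units of the array's 75th percentile. Their sum was 26.4 to 30.6 in BBMP livers and 33.8 to 39.2 in corn oil livers, without overlap. Kupffer cell and macrophage markers were higher in 6 of 6 cases, against 47.5% of all features, and the groups overlapped for each marker. For every marker, BBMP 2 was lowest and corn oil 3 highest in its group, so the 6 are not independent. Their sums were 65.2 to 81.7 in BBMP livers and 49.3 to 81.3 in corn oil livers. A sum adds probes of unequal brightness, and on every array most of it came from Col3a1 for the stellate list, Clec4f for the Kupffer list, Kdr for the endothelial list, Epcam for the cholangiocyte list and Hbb for the red cell list. Hepatocyte markers were higher in 2 of 6 cases, with sums of 4249 to 4788 in BBMP livers and 4593 to 4926 in corn oil livers. Sums overlapped for cholangiocyte markers (1.27 to 1.36 in BBMP livers and 0.92 to 1.41 in corn oil livers) and for sinusoidal endothelial markers (40.3 to 46.0 in BBMP livers and 36.9 to 45.3 in corn oil livers). They also overlapped for leukocyte markers (2.04 to 3.48 in BBMP livers and 2.69 to 3.02 in corn oil livers) and for red blood cell markers (225.2 to 413.4 in BBMP livers and 264.5 to 368.3 in corn oil livers). The part of these cell types in the Cyp2a values was not tested.

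For the gene of each subfamily with the smallest p, the 3 most similar of 10699 named genes outside the set were found by the root mean square difference of centred log2 signals over the 6 arrays. Nearest to Cyp2a1 were Itpr2, Myrf and Nxpe4 at 0.06, 0.07 and 0.07 log2 units, where Cyp2a1 itself varied by 0.24 about its mean. Nearest to Cyp2e1, which varied by 0.40, were the bile acid 12-alpha-hydroxylase Cyp8b1 at 0.10 and Baiap2 and Gltpd2 at 0.11 each. Cyp8b1 differed by 0.52 between the groups. Nearest to Cyp2d1 outside the set were Stk4 at 0.04 and Secisbp2l and Pnkd at 0.05 each, and nearest to Cyp2j3 were Phaf1 and Dcp2 at 0.04 and Eif4a2 at 0.05. Among so many genes on 6 arrays, some lie close to any given pattern.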

How the data were processed

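The deposited scanner files hold linear intensity for each spot, read with Feature Extraction 10.7.1.1 on array design 035170, annotated on rn4, per the file headers. The processed signal in them is background-subtracted and not normalised between arrays. The authors' deposited value table also holds linear intensity. Each of its columns is the processed signal divided by 1 constant close to the array's 75th percentile. Its columns have medians between 0.0971 and 0.1005, and the software of that step is not given in the sources used here. Its direction is that of the scanner files and it holds no centring of probes.

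The processed signal was scaled to the 75th percentile of 61573 probes on each array and taken as log2. Control spots (1319), external spike-in probes (84) and outlier spots (at most 21 per array) were left out. Probes were named through unversioned accessions in the RefSeq table of GRCr8, which named 27460 probes. None of the 16 probes was saturated. The brightest probe stood for each gene. Groups came from the treatment labels, and limma 3.58.1 (R 4.3.3) compared them, two-sided, over 28112 features (or 37644 probes). Ratios between probes were tested with an exact permutation test over arrays in scipy 1.17.1. Tables were made with Python 3.11.15 and pandas 2.3.3. On simulated data for this comparison with 28098 features, changes of 1, 2 and 3 on the log2 scale were added. The fit recovered 47%, 82% and 96% of them in that order. The simulation drew independent normal noise without an effect of slide. Changes as small as those of the member genes, at most 0.48, were not simulated, so the rates do not describe them. The number of arrays limits the precision.

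Named genes were all members, from each other list the 2 genes of lowest p, and the nearest patterns. Chromosome neighbours are named by position. Alas1, Hnf4a, Nr1i3, Foxa2, Cyp2c11, Cyp2c12, Cyp2c7, Srd5a1, Sult1e1, Sult2a1 and Des were chosen after their values were seen. The members and lists were chosen with earlier results of these data known. Normexp used the spots' median signal, because a mean signal is not in the files used here. Alternatives were normexp, quantile and median scaling, 2 other filters, the mean of a gene's probes, the value table, a trend with robust moderation, the replicate number as a block, and leaving out each array.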

Additional observations from a re-analysis of the deposited data

How the results depend on the processing

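The number of features past the threshold was 2. It was 0 with normexp (3275 at an unadjusted p under 0.05), 0 when only features above background on all 6 arrays were kept, a set that holds neither of the 2, 1 without a filter, over 45793 features, and 0 to 4 without 1 array: 0 without corn oil 3 and 4 without corn oil 2. With the replicate number as a block it was 0 (3235 at an unadjusted p under 0.05). Nothing in the labels ties animals of the same number, and their deviations from the group means correlated at 0.089, 0.016 and 0.072. For the other settings the cause was not tested. None of the 9 genes passed under the alternatives run. Of the member probes, 0 passed with normexp, quantile scaling or no filter, the alternatives run probe by probe, and the number of genes with a positive difference stayed between 4 and 6. The count of genes whose groups do not overlap, 2, was recomputed under alternatives chosen after seeing the data. It stayed 2 under each scaling and was 2 to 5 without 1 array, 5 without corn oil 3. Leaving out an array can raise this count but cannot lower it.

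Of 135 recomputed differences of single genes, 129 kept their sign. The other 6 were the difference of Cyp2d3 at -0.12 and that of Cyp2d5 at 0.019 with normexp, and 4 without 1 array. Without 1 array, the difference of Cyp2d2 was -0.031 to 0.15, that of Cyp2d3 -5.1e-05 to 0.11 and that of Cyp2j3 -0.025 to 0.25. The trend and the block keep the difference of each gene by construction. The 2 other filters also left it unchanged, because the same probe stood for each gene. For genes with 1 probe, the mean of a gene's probes is that probe. These settings could not change a sign, so the count of 129 says little about them. The slide as a block could not be fitted, since each group lay on 1 slide. Signal over background limits Cyp2a3, which has no measurable level in either group. The other genes are limited by the number of arrays and by slides and scans that follow the groups. Whether the Cyp2a and Cyp2d probes tell neighbouring genes apart was not tested, and the Cyp2j3 probes did not all give the same difference.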
